A study of Homo sapiens with 8 samples.

Results

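Within BCL11A knockout (KO) HUDEP-2 cells, 4 captured regions of the β-globin locus, the baits, were set against each other by the DNA they contacted. *HBB* was compared with *HBG*, and the region upstream of *HBD* (*HBD*-3.5kb) with the locus control region (LCR). The deposited BCL11A KO list held 4 sorted runs without names, and each run was given to the bait in which 100% of its pairs had an end. Once mirrored and repeated lines were collapsed, 2418 pairs remained, 108 from the *HBB* bait, 1012 from *HBD*-3.5kb, 82 from *HBG* and 1216 from the LCR, out of 5607 in the BCL11A KO and WT lists together.

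HUDEP-2 cells are immortalized human erythroid progenitors grown as a line, and the cells used here carried a knockout of BCL11A. The labels describe expansion culture with SCF, EPO, dexamethasone and doxycycline, whereas the study's methods state that HUDEP-2 cells were taken for capture after erythroid differentiation. In CAPTURE-3C-seq, a biotinylated and catalytically inactive Cas9 is brought to the baits by sgRNAs, DNA held close together in the nucleus is ligated, and the captured ligation products are sequenced. The cells carried the tagged dCas9 together with sgRNAs, and 3 biological replicates were merged into the 1 list analysed here. Whether the knockout line is 1 clone is not given in the sources used here, and the lists hold no expression values by which the erythroid state could be checked.

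The β-globin genes lie on chromosome 11 in the order *HBE1* (embryonic), *HBG2* and *HBG1* (fetal γ-globin), *HBD* and *HBB* (adult), downstream of the LCR, a strong erythroid enhancer made of the hypersensitive sites HS1 to HS5. Globin genes are activated when the LCR comes into contact with their promoters, and BCL11A is a repressor of the γ-globin genes in adult erythroid cells. The 3'HS1 site on the far side of *HBB* and HS5 bind CTCF and flank the locus, and olfactory receptor genes lie on both sides.

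In hg19, the *HBB* bait covered chr11:5246501-5250201 and the *HBD*-3.5kb bait chr11:5255713-5261213. The *HBG* bait covered chr11:5270187-5281587 and the LCR bait chr11:5295475-5313775. They were thus 3.7, 5.5, 11.4 and 18.3 kb long. The *HBB* bait held *HBB* with its promoter. The *HBD*-3.5kb bait lay upstream of the *HBD* start site. The *HBG* bait held *HBG2*, the sequence upstream of it and the promoter side of *HBG1*. The LCR bait lay upstream of *HBE1*.

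Each interaction joined 2 ends of 42 bp, and a few ends were used again and again. The most used end of each bait is shown first, with the base letters GATC in capitals where they begin or close the end. In the *HBB* and LCR lists, the 1-kb bin from which most leaving pairs started was a different one. The sequences are read 5′ to 3′ from the plus strand of GRCh37, the same build as hg19.

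HBB bait, chr11:5247821-5247862: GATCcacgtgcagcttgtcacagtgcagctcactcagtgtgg
HBD-3.5kb bait, chr11:5257743-5257784: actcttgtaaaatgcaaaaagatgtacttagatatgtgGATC
HBG bait, chr11:5275593-5275634: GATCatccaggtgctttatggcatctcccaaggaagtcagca
LCR bait, chr11:5305798-5305839: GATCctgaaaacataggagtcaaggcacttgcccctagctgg

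The *HBB* end lay in coding exon 2 of *HBB* and was used by 7 of 108 pairs (6.48%). The *HBG* end lay in coding exon 2 of *HBG2* and was used by 12 of 82 pairs (14.6%). The *HBD*-3.5kb end lay 2.05 kb upstream of the *HBD* start site, outside the canonical transcript, and carried 363 of 1012 pairs (35.9%). The LCR end lay at HS3, 14.6 kb upstream of the canonical *HBE1* start site and inside an intron of a longer annotated transcript, and was used by 101 of 1216 pairs (8.31%). The same HS3 end ranked 3 among the ends of the *HBG* list, with 7 pairs. The ends ranked 1 to 3 in each of the 4 lists all had a GATC at an edge. Of all pairs, 37.04% in the *HBB* list, 64.8% in the *HBD*-3.5kb list, 48.8% in the *HBG* list and 32.6% in the LCR list had such an end.

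The 4 lists differed in size, in reach and in how far they rested on single ends. The *HBB* list held only pairs that left the bait, 108 of 108 (100%, 95% Wilson interval 96.6 to 100%). This bait is 3.7 kb long and the shortest pair of its list spanned 3659 bp, so hardly any such pair could stay inside. Its share is therefore no measure of reach against the longer baits. The LCR list left its bait in 880 of 1216 pairs (72.4%, 69.8 to 74.8%), the *HBG* list in 38 of 82 (46.3%, 36.0 to 57.1%), and the *HBD*-3.5kb list in 267 of 1012 (26.4%, 23.8 to 29.2%). Over pairs of 1-kb bins, the *HBG* share was 70.4%, and without pairs found in 2 of the lists it was 8.33%. A floor of 3 pairs was 2.78% of the *HBB* list, 0.296% of *HBD*-3.5kb, 3.66% of *HBG* and 0.247% of the LCR list. Without read numbers in the list, every distinct pair counted as 1. Intervals and tests cover counting error only, over pairs that often share an end within 1 merged library, and no value has a replicate error. The p-values below were adjusted by Benjamini-Hochberg over 36 tests, and those of an alternative setting over the tests recomputed under it. Of the 36 tests, 24 had an adjusted p under 0.05 (66.7%). These were 13 of 21 between *HBB* and *HBG* (61.9%) and 11 of 15 between *HBD*-3.5kb and the LCR (73.3%).

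The score of a pair, a Bayes factor (BF) capped at 150, also differed between lists. It was at the cap in 71.3% of *HBB* pairs and 90.2% of *HBG* pairs (adjusted exact p = 0.00360, two-sided Fisher's exact test), and over pairs of 1-kb bins in 63.2% and 77.8% (adjusted exact p = 0.327). All 44 pairs within the *HBG* bait were at the cap, and among leaving pairs the shares were 71.3% for *HBB* and 78.9% for *HBG*. The score was at the cap in 95.7% of *HBD*-3.5kb pairs and 83.2% of LCR pairs (adjusted exact p = 4.45e-21), but with ends at least 1 kb apart in 84.9% and 82.7% (adjusted exact p = 0.512). The lowest score was 110 in the *HBB* list, 98 in *HBG*, 21 in *HBD*-3.5kb and 20 in the LCR list. With a score of at least 100 as the criterion, the difference between *HBB* and *HBG* turned to 100% of *HBB* against 95.1% of *HBG* pairs.

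The first comparison asks what the adult *HBB* gene and the fetal *HBG* genes contacted in cells without BCL11A. Pairs that left the *HBG* bait ended mostly in the LCR, 31 of 38 (81.6%, 66.6 to 90.8%), whereas pairs that left the *HBB* bait did so in 17 of 108 (15.7%, 10.1 to 23.8%). The difference had an adjusted exact p of 2.16e-12 by two-sided Fisher's exact test. The LCR lay 13.9 to 32.2 kb from the *HBG* bait and 45.3 to 63.6 kb from the *HBB* bait, and distance was not accounted for. Of 9 target intervals tested between these baits, 4 had an adjusted p under 0.05 (44.4%). The other 3 went the opposite way, but shares within a bait trade off, so they are not independent of the LCR share. Beyond 3'HS1, outside the locus, the *HBB* bait had 20 ends (18.5%) and the *HBG* bait 0 (adjusted exact p = 0.00378). Between 3'HS1 and the *HBB* bait there were 18 (16.7%) and 0, and beyond HS5 there were 19 (17.6%) and 0 (adjusted exact p = 0.00614 for both). A count of 0 among the 38 *HBG* pairs allows a share of up to 7.89% by the floor of 3 pairs, and up to 9.18% by the Wilson interval. Over pairs of 1-kb bins, these 3 differences had adjusted exact p values of 0.0766, 0.179 and 0.0766, and without pairs in 2 lists, which leaves *HBG* with 4 pairs, 0.829 for all 3. At the highest score, that beyond HS5 had an adjusted exact p of 0.0576. Counted over pairs of 1-kb bins, the share of the LCR was 78.9% against 13.2% (adjusted exact p = 1.39e-06). With all pairs of the bait as denominator, the gap was smaller, 37.8% of *HBG* against 15.7% of *HBB* pairs (adjusted exact p = 0.00150).

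All 38 leaving pairs of the *HBG* bait ended in the LCR, in the *HBD*-3.5kb bait or at 3'HS1. The *HBD*-3.5kb bait took 5 of them (13.2%, 5.75 to 27.3%) and 3'HS1 took 2 (5.26%, 1.46 to 17.29%). No pair ended in the *HBB* bait, around the *HBD* gene, in the interval with *HBBP1* (a β-globin pseudogene) and *BGLT3* (a long noncoding RNA), or around *HBE1*. The *HBB* bait had 37 of 108 pairs (34.3%) in other baits or at 3'HS1, 32 (29.6%) in the intervals between them and 39 (36.1%) outside the locus. Its 3 most used 1-kb bins were chr11:5259000-5259999 with 7 pairs and chr11:5257000-5257999 with 6, both in the *HBD*-3.5kb bait, and chr11:5306000-5306999 with 6, at HS3. The *HBD*-3.5kb bait as a whole took 17 *HBB* pairs (15.7%), which was not told apart from its share in the *HBG* list (adjusted exact p = 0.897). The *HBG* bait took 3 *HBB* pairs (2.78%), and 3'HS1 took 0, which allows up to 2.78% by the floor and 3.43% by the Wilson interval.

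**Figure D1:**
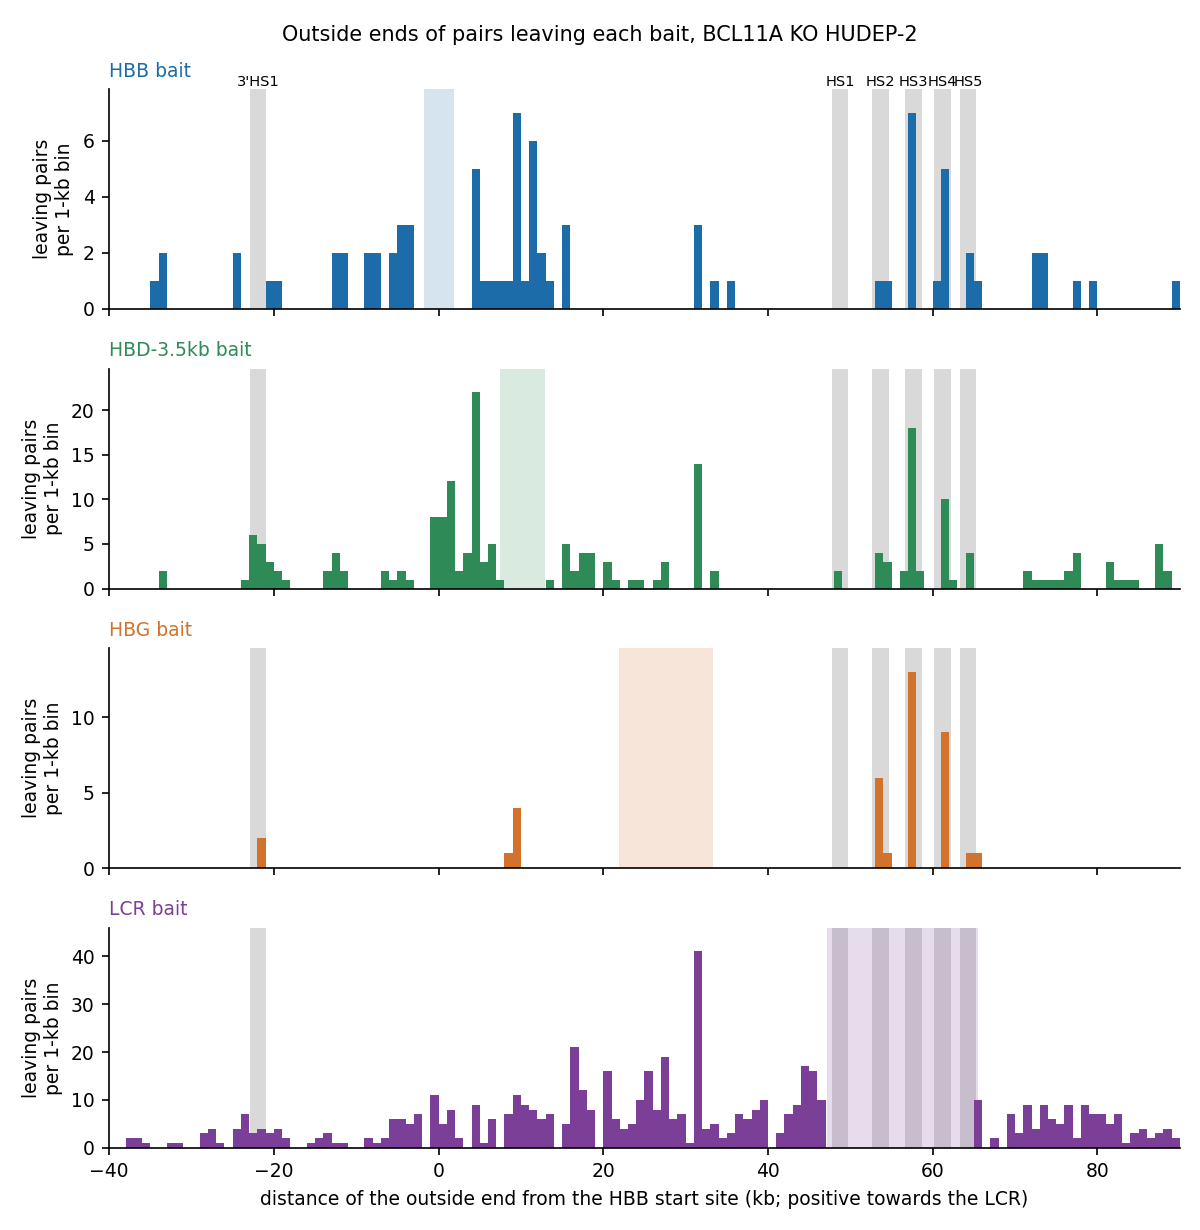
Number of leaving pairs per 1-kb bin by the position of their outside end, given as the distance in kb from the HBB start site, for the 4 baits; the coloured shade marks the bait itself and grey shades mark 3'HS1 and HS1 to HS5. The 38 ends of the HBG bait fall in few places, while the ends of the LCR bait spread over the whole locus; ends outside the range drawn are not shown.

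In the *HBG* list, the leaving pairs started from few places inside the bait. The bin chr11:5275000-5275999, inside *HBG2*, held 17 of 38 inner ends, and chr11:5272000-5272999, between *HBG1* and *HBG2*, held 14. The first had 14 pairs to the LCR and 3 to *HBD*-3.5kb. The second had 10 pairs to the LCR, 2 to *HBD*-3.5kb and both pairs to 3'HS1. The third bin, chr11:5277000-5277999, upstream of *HBG2*, had 5 pairs, all to the LCR. Of the 31 pairs that reached the LCR, none started in the *HBG1* transcript or in the 1 kb upstream of it.

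In the *HBB* list, 83 of 108 inner ends lay in the bin that holds the *HBB* start site, chr11:5248000-5248999. Of these, 8 went to the LCR (9.64%, 4.97 to 17.9%) and 34 left the locus (40.96%, 31.0 to 51.7%). The neighbouring bin inside the gene, chr11:5247000-5247999, had 20 pairs, of which 6 went to the LCR and 5 left the locus. The bin farther upstream, chr11:5249000-5249999, had 5 pairs, 3 to the LCR and 2 to *HBD*-3.5kb. These bins were looked at after their values were known, and no test was made between them.

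The γ-globin genes *HBG1* and *HBG2* are near copies of each other. Within the *HBG* bait, 17.6% of the possible 42-base stretches are found again elsewhere on chromosome 11, and within the canonical transcripts the share was 55.9% for *HBG1* and 56.1% for *HBG2*. In the *HBB*, *HBD*-3.5kb and LCR baits it was 1.67%, 1.74% and 1.27%. Reads that aligned to more than 1 place had been removed, and none of the 6 listed ends in *HBG1* and the 22 in *HBG2* was a repeated stretch. The *HBG* bait also had the fewest leaving pairs per kb of bait, 3.33 (exact Poisson interval 2.36 to 4.58), against 29.2 (23.9 to 35.2) for *HBB* (adjusted exact p = 8.59e-35, two-sided exact binomial test). Over pairs of any list, where most pairs added to *HBG* came from the LCR list, *HBG* had 13.1 per kb and *HBB* 33.8. The part of lost reads and of capture efficiency in this count was not tested.

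**Figure D2:**
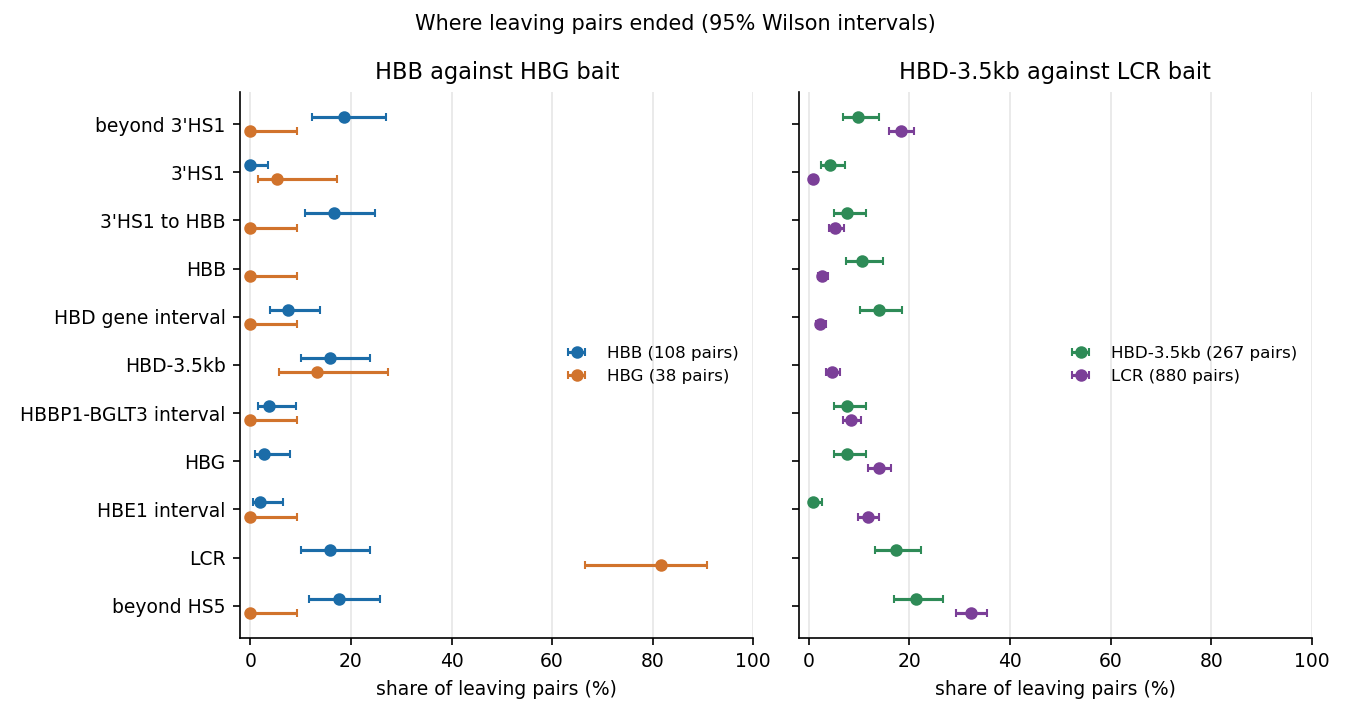
Share of leaving pairs (%) that ended in each interval of chromosome 11, ordered along the locus from beyond 3'HS1 to beyond HS5, with 95% Wilson intervals, for HBB and HBG on the left and HBD-3.5kb and LCR on the right. The LCR took 81.6% of HBG pairs and 15.7% of HBB pairs, and no other interval separates these baits as far.

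HS1 to HS5 were windows of 2 kb within the LCR. The gene baits used these sites in much the same order. The *HBB* pairs fell at HS3 (7), HS4 (6), HS2 (2) and HS5 (2), and none fell at HS1. The *HBG* pairs fell at HS3 (13), HS4 (9), HS2 (7) and HS5 (1), and again none fell at HS1 in this list. In the LCR list, however, 8 pairs joined HS1 to the *HBG* bait. The *HBD*-3.5kb pairs fell at HS3 (19), HS4 (11), HS2 (5), HS5 (4) and HS1 (2). HS3 and HS4 together took 76.5% of the site pairs of *HBB* (52.7 to 90.4%), 73.3% of *HBG* (55.6 to 85.8%) and 73.2% of *HBD*-3.5kb (58.1 to 84.3%). The split over the 5 sites was not told apart between *HBB* and *HBG* (adjusted exact p = 0.698, exact test of the table), but with 17 and 30 pairs the intervals are wide.

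As shares of all leaving pairs, HS2, HS3 and HS4 followed the LCR as a whole. HS3 took 34.2% of *HBG* pairs and 6.48% of *HBB* pairs (adjusted exact p = 0.000263). HS4 took 23.7% and 5.56% (adjusted exact p = 0.00614), and HS2 took 18.4% and 1.85% (adjusted exact p = 0.00257). With all pairs of each bait as the denominator, these 3 differences were smaller and had adjusted exact p values of 0.0785, 0.239 and 0.0635. Without pairs in 2 lists, HS2, HS3 and HS4 had 0 pairs from either bait. HS5 took 2.63% of *HBG* and 1.85% of *HBB* pairs (adjusted exact p = 1).

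**Figure D3:**
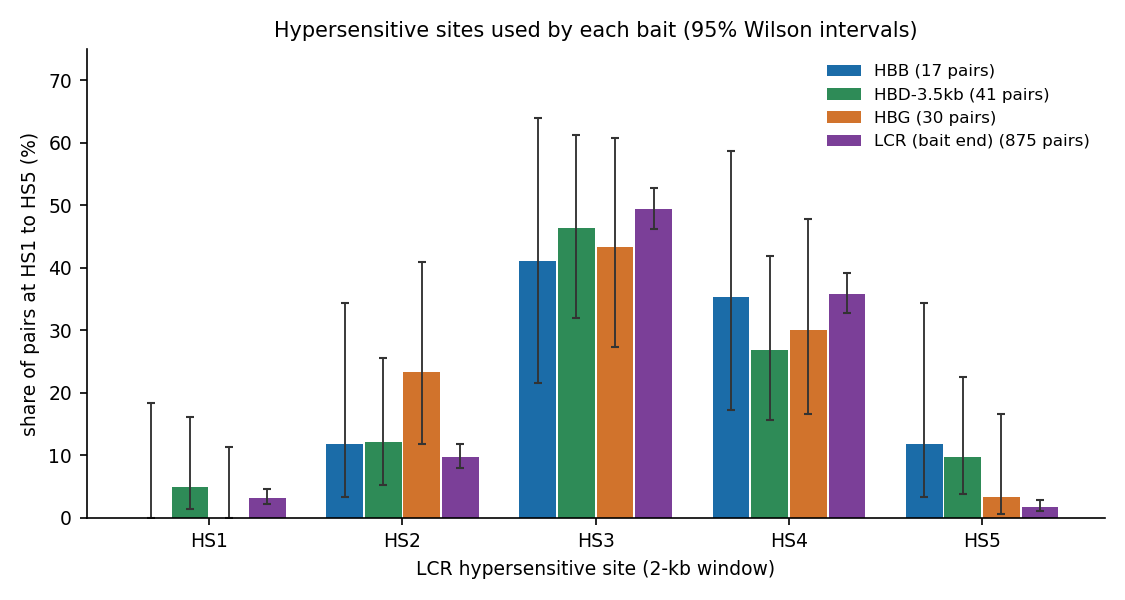
Share (%) of the pairs at HS1 to HS5 that fell at each site, with 95% Wilson intervals, for the 3 gene baits by their outside end and for the LCR bait by its own end. HS3 has the highest share in all 4 sets, and HS1 has 0 in the lists of HBB and HBG, while the LCR list holds 8 pairs between HS1 and HBG.

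Seen from the LCR bait, HS3 and HS4 were again the sites most used. Of 880 leaving pairs, 433 had their bait end at HS3 (49.2%, 45.9 to 52.5%), 314 at HS4 (35.7%, 32.6 to 38.9%), 85 at HS2 (9.66%), 28 at HS1 (3.18%) and 15 at HS5 (1.70%). HS3 holds 8 GATC positions in its 2 kb, HS4 and HS5 hold 3 each, HS2 holds 4 and HS1 holds 5. The part of GATC positions in the use of a site was not tested.

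The places reached from each site are given side by side. Of the 122 LCR pairs to the *HBG* bait, HS3 held 63 (51.6%), HS4 27 (22.1%), HS2 17 (13.9%), HS1 8 (6.56%) and HS5 5 (4.10%). Of the 23 LCR pairs to the *HBB* bait, HS4 held 9, HS3 8, HS2 3 and HS5 2. The *HBG* bait took 14.5% of HS3 pairs (11.5 to 18.2%), 8.60% of HS4 pairs (5.98 to 12.2%) and 20.0% of HS2 pairs (12.9 to 29.7%). Outside the locus, HS3 sent 148 pairs beyond HS5 and 74 beyond 3'HS1, and HS4 sent 112 and 69. HS5 itself had 15 leaving pairs, of which 5 went to *HBG*, 4 to *HBD*-3.5kb, 4 beyond HS5 and 2 to *HBB*. These splits are descriptions, with no test between sites.

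Within the LCR bait, 336 pairs joined 2 places of the LCR. HS3 was in 260 of them (77.4%, 72.6 to 81.5%), HS4 in 119 (35.4%), HS2 in 91 (27.1%), HS1 in 26 (7.74%) and HS5 in 15 (4.46%). The pair HS3 and HS4 had 67 (19.9%, 16.0 to 24.5%) and HS2 and HS3 had 58 (17.26%, 13.6 to 21.7%). HS2 and HS4 were joined by 15 and HS1 and HS3 by 13. In 114 pairs (33.9%), HS3 was joined to LCR sequence outside the 5 windows. The most used single end, at HS3 and printed above, was part of the LCR list 101 times, over leaving and inner pairs together.

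The second comparison sets the *HBD*-3.5kb bait, a region between the fetal and adult genes that is removed in many deletions with persistent fetal hemoglobin, against the LCR. The *HBD*-3.5kb list stayed mostly within its bait, with 26.4% of pairs leaving against 72.4% for the LCR (adjusted exact p = 1.01e-105). This rested on short pairs. Of the *HBD*-3.5kb pairs, 720 of 1012 (71.1%) spanned under 1 kb, and 36 of 1216 LCR pairs (2.96%) did. With ends at least 1 kb apart, the order turned, to 91.4% for *HBD*-3.5kb and 74.6% for the LCR (adjusted exact p = 1.91e-10). Over pairs of 1-kb bins it was 94.5% and 88.9% (adjusted exact p = 0.0766). The *HBB* and *HBG* lists held no pair under 1 kb, and their shortest pairs spanned 3659 and 2301 bp, against 95 bp in *HBD*-3.5kb and 110 bp in the LCR list.

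The short *HBD*-3.5kb pairs lay at 2 places. Of the 745 pairs within the bait, 518 (69.5%) had both ends in chr11:5257000-5257999, the bin of the most used end. A further 162 (21.7%) joined the bins that start at 5258000 and 5259000, and 31 (4.16%) lay within chr11:5259000-5259999. The median span of the pairs within the bait was 318 bp, against 3870 bp within the LCR bait and 4259 bp within the *HBG* bait.

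Of 9 target intervals tested between *HBD*-3.5kb and the LCR, 7 had an adjusted p under 0.05 (77.8%). The *HBD*-3.5kb bait had larger shares of its 267 leaving pairs in the interval with the *HBD* gene, which adjoins it, in the *HBB* bait and at 3'HS1. This did not hold for the whole *HBB* side, which took 122 of these pairs against 596 of 880 LCR pairs. The interval with the *HBD* gene took 37 (13.9%, 10.2 to 18.5%), against 2.16% of LCR pairs (adjusted exact p = 1.45e-11). Over pairs of 1-kb bins it took 7.10% and 2.42% (adjusted exact p = 0.0351), and over all pairs of the bait 3.66% and 1.56% (adjusted exact p = 0.00469). The *HBB* bait took 28 (10.49%, 7.36 to 14.7%), against 2.61% (adjusted exact p = 2.05e-06), and over pairs of 1-kb bins 7.74% against 2.82% (adjusted exact p = 0.0480). The 3'HS1 site took 11 (4.12%, 2.32 to 7.23%), against 0.795% (adjusted exact p = 0.00151). Its most used outside bin was chr11:5252000-5252999, with 20 pairs, downstream of *HBD* and outside its canonical transcript. The second was chr11:5279000-5279999, upstream of *HBG2*, with 11, and the third chr11:5306000-5306999, at HS3, with 10. With all pairs of the bait as denominator, *HBB* (2.77% against 1.89%) and 3'HS1 (1.09% against 0.576%) had adjusted exact p values of 0.249 and 0.282.

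The LCR had larger shares of its 880 leaving pairs in the interval around *HBE1*, in the *HBG* bait and outside the locus. The interval around *HBE1* and the sequence beyond HS5 both begin at an edge of the LCR bait. The interval around *HBE1*, next to the LCR, took 103 (11.7%, 9.75 to 14.0%), against 2 of the *HBD*-3.5kb pairs (0.749%, adjusted exact p = 1.03e-09). The *HBG* bait took 122 (13.9%, 11.7 to 16.3%), against 20 (7.49%, 4.901 to 11.3%, adjusted exact p = 0.00874). Beyond HS5 there were 284 (32.3%) against 57 (21.3%, adjusted exact p = 0.00151), and beyond 3'HS1 161 (18.3%) against 26 (9.74%, adjusted exact p = 0.00154). At the highest score, the share beyond HS5 was 28.7% against 22.9% (adjusted exact p = 0.156) and that beyond 3'HS1 13.9% against 9.42% (adjusted exact p = 0.138). The difference beyond HS5 also had adjusted exact p values of 0.0845 over pairs of 1-kb bins and 0.0748 without pairs in 2 lists. Over pairs of 1-kb bins, the *HBG* difference was 9.48% against 7.10% (adjusted exact p = 0.563), and without pairs in 2 lists 11.7% against 7.32% (adjusted exact p = 0.143). The interval of *HBBP1* and *BGLT3* took 8.41% of LCR and 7.49% of *HBD*-3.5kb pairs (adjusted exact p = 0.817), but with all pairs of the bait as denominator 6.09% and 1.98% (adjusted exact p = 2.57e-06). The stretch between 3'HS1 and *HBB* took 5.23% and 7.49% (adjusted exact p = 0.236). With all pairs of the bait as denominator the order turned, to 3.78% and 1.98% (adjusted exact p = 0.0208).

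The inner ends of the *HBD*-3.5kb list fell into a pair of main bins with different reach. From chr11:5257000-5257999, 116 pairs left the bait, of which 27 left the locus (23.3%, 16.5 to 31.7%), 16 went to the interval of *HBBP1* and *BGLT3* and 11 to *HBG*. From chr11:5259000-5259999, 96 pairs left the bait, of which 48 left the locus (50.0%, 40.2 to 59.8%), 0 went to the interval of *HBBP1* and *BGLT3* and 4 to *HBG*. Both sent a like share to the LCR, 14 of 116 (12.1%, 7.33 to 19.2%) and 12 of 96 (12.5%, 7.30 to 20.6%). From chr11:5258000-5258999, between them, 9 of 29 pairs went to the LCR. These bins were chosen by their counts and were not tested.

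The LCR pairs to *HBG* fell in more places than the LCR pairs of the *HBG* list. The bin with most LCR pairs in the whole list was chr11:5279000-5279999, 3.49 kb upstream of the *HBG2* start site, with 35 of 880. The bin inside *HBG2*, chr11:5275000-5275999, had 23, and chr11:5264000-5264999, at *HBBP1*, had 20. Of the 122 LCR pairs to the *HBG* bait, 26 ended in the *HBG2* transcript, 5 in the *HBG1* transcript, 1 in the 1 kb upstream of *HBG2* and 0 in the 1 kb upstream of *HBG1*. The other 90 (73.8%) ended in the rest of the bait. In the *HBG* list, the bin chr11:5279000-5279999 had 0 of 31 LCR pairs, and the bin inside *HBG2* had 14. The bin chr11:5277000-5277999, also upstream of *HBG2*, had 5. Of the 44 pairs within the *HBG* bait, however, 15 joined the bin that starts at 5277000 to that at 5279000, 8 joined 5272000 to it and 5 joined 5275000 to it, while 10 joined 5271000 to 5275000. The bin chr11:5279000-5279999 thus occurred in the *HBG* list as a partner within the bait.

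**Figure D4:**
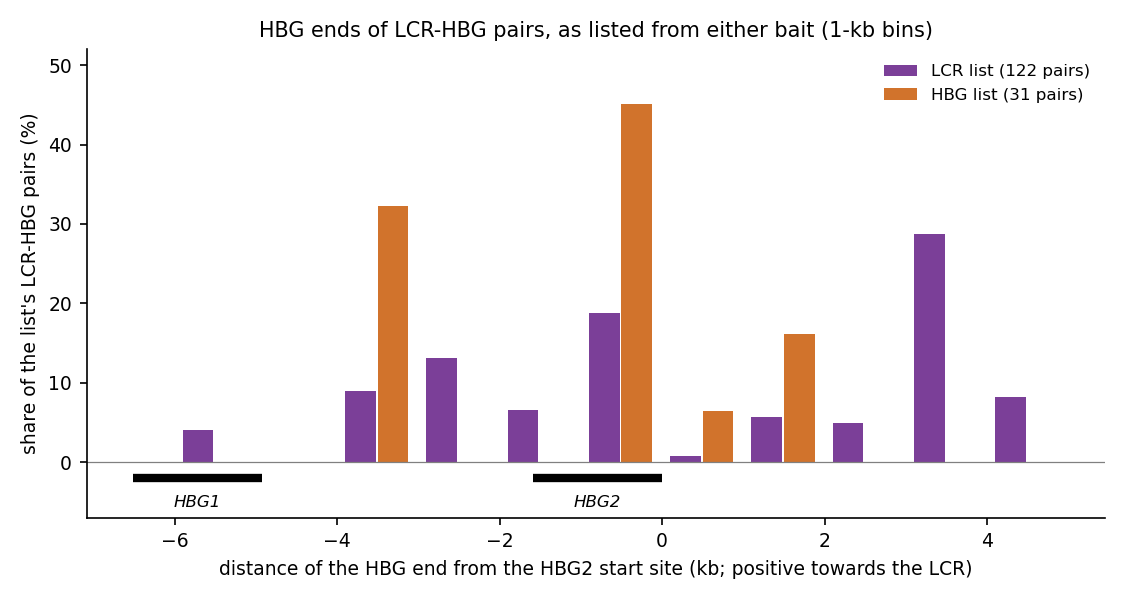
Share (%) of LCR-HBG pairs by the 1-kb bin of their HBG end, at its distance in kb from the HBG2 start site, for the 122 pairs of the LCR list and the 31 pairs of the HBG list; black bars mark the canonical HBG1 and HBG2 transcripts. The LCR list has 35 pairs in the bin 3 to 4 kb upstream of HBG2, where the HBG list has none.

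A contact between baits could be listed from either side, and the lists did not always hold the same pairs. In all, 108 pairs were in 2 lists, and 2310 distinct pairs remained over the 4 lists. All 17 pairs of the *HBB* list to the LCR were also among the 23 pairs of the LCR list to *HBB* (100% and 73.9%). Of *HBD*-3.5kb and LCR pairs, 46 and 41 were listed and 40 were shared (87.0% and 97.6%). Between *HBG* and the LCR, 31 and 122 were listed and 29 were shared (93.5% and 23.8%). The *HBB* list had 17 pairs to *HBD*-3.5kb, all of them among the 28 listed the other way (100% and 60.7%). The *HBD*-3.5kb list had 20 pairs to *HBG*, and the 5 listed from *HBG* were all among them (25% and 100%). The 3 *HBB* pairs to *HBG* were absent from the *HBG* list.

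Distances also separated the baits. The span from end to end of leaving pairs had a median of 33.7 kb in the *HBB* list, 32.8 kb in *HBD*-3.5kb, 33.4 kb in *HBG* and 44.4 kb in the LCR list. The medians of the gene baits were close, but their spreads were not. The middle 50% of *HBG* pairs spanned 26.4 to 34.2 kb, against 9.79 to 81.8 kb for *HBB* and 9.51 to 70.5 kb for *HBD*-3.5kb. The longest *HBG* pair spanned 45.9 kb, the longest *HBB* pair 262 kb and the longest *HBD*-3.5kb pair 16305 kb.

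All 38 leaving pairs of *HBG* spanned at least 10 kb, against 80 of 108 for *HBB* (74.1%, adjusted exact p = 0.000263), and 86.8% against 56.5% spanned at least 20 kb (adjusted exact p = 0.00159). The difference at 20 kb had adjusted exact p values of 0.174 over pairs of 1-kb bins and 0.706 at 30 kb. Without pairs in 2 lists, the adjusted exact p was 0.829 at 10 kb and 0.272 at 20 kb, and over all leaving pairs it was 0.0982 at 5 kb. At 40 kb the order turned, with 5.26% of *HBG* and 47.2% of *HBB* pairs (adjusted exact p = 4.00e-06). At least 20 kb was spanned by 62.2% of *HBD*-3.5kb and 82.2% of LCR pairs (adjusted exact p = 2.71e-10), and at least 10 kb by 73.0% and 95.9% (adjusted exact p = 3.38e-23). These gaps narrowed to 56.6% and 69.1% at 20 kb from the bait edge, to 47.2% and 55.0% at a span of 40 kb (adjusted exact p = 0.0462), and to 94.0% and 99.1% at a span of 5 kb.

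With distance from the bait edge, the LCR pairs thinned out slowly, from 7.70 per kb of flank at 0 to 5 kb (6.08 to 9.62) over 5.55 at 20 to 40 kb (4.84 to 6.33) to 0.781 at 80 to 160 kb (0.650 to 0.931). The *HBD*-3.5kb pairs fell from 4.8 (3.54 to 6.36) to 0.625 at 20 to 40 kb (0.4045 to 0.923) and stood at 0.912 at 40 to 80 kb (0.715 to 1.15), where 69 of 73 pairs lay on the LCR side. The *HBB* pairs stood at 1.5 at 0 to 5 kb (0.840 to 2.47), 2.2 at 5 to 10 kb (1.38 to 3.33), 0.250 at 20 to 40 kb and 0.3 at 40 to 80 kb, and all 24 pairs of the last class lay on the LCR side. The *HBG* bait had 0 pairs within 10 kb of its edges, and 31 of 38 at 20 to 40 kb, all on the LCR side. Measured from the bait edge, the LCR lay 45.3 to 63.6 kb from the *HBB* bait, 34.3 to 52.6 kb from *HBD*-3.5kb and 13.9 to 32.2 kb from *HBG*.

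The LCR was set against the stretch at the same distance on the other side of each gene bait. The *HBB* bait had 17 pairs in the LCR and 0 in its mirror stretch, *HBD*-3.5kb had 46 and 2, and *HBG* had 31 and 0. The LCR was itself a captured bait, whereas the mirror stretches of *HBB* and *HBD*-3.5kb lay outside the locus and held no bait. The part of capture in this contrast was not tested. The mirror stretch of the *HBG* bait, chr11:5237999-5256299, holds the *HBB* and *HBD* genes.

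**Figure D5:**
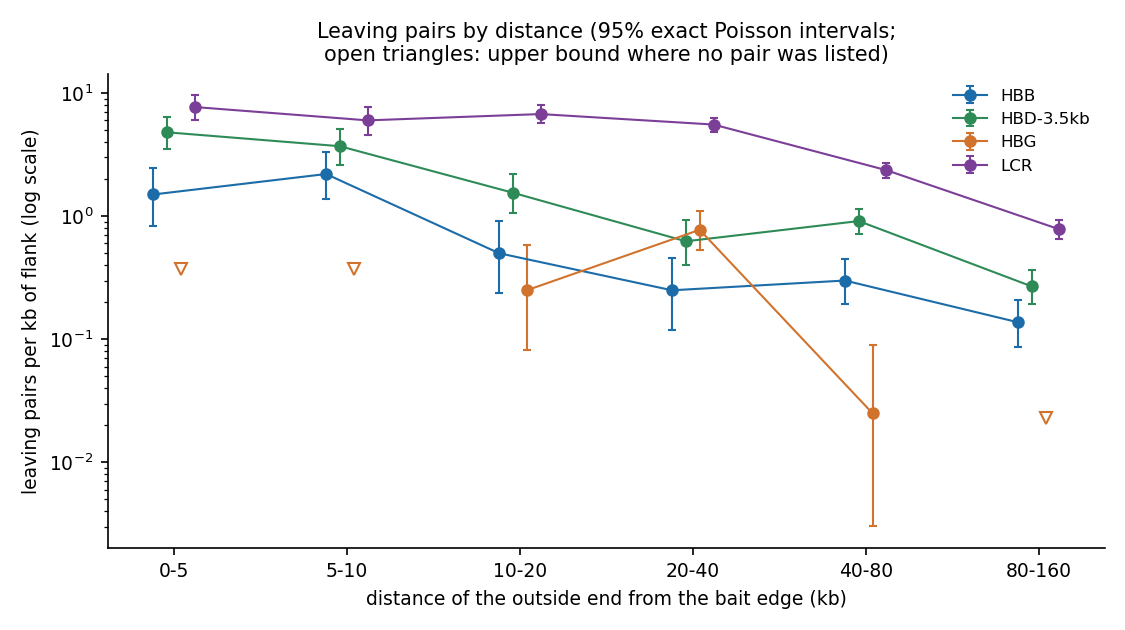
Leaving pairs per kb of flank (log scale) against the distance of the outside end from the bait edge in kb, both sides together, with 95% exact Poisson intervals, for the 4 baits; open triangles give the upper bound where no pair was listed. The LCR bait declines from 7.70 to 0.781, while the HBG bait has pairs in 3 of the 6 classes.

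Within 20 kb of the bait, 29 of 47 *HBB* pairs went towards the LCR side (61.7%, 47.4 to 74.2%) and 0 of 5 *HBG* pairs did (adjusted exact p = 0.0194). This rested on the limit. Within 30 kb, 61.5% of *HBB* and 85.3% of *HBG* pairs did (adjusted exact p = 0.0416). Of *HBD*-3.5kb pairs within 20 kb, 34.5% went towards the LCR side, and of LCR pairs 38.6% went beyond HS5 (adjusted exact p = 0.633). Within 15 kb these were 26.8% and 44.7% (adjusted exact p = 0.00588). With no limit the order turned, to 54.3% and 32.3% (adjusted exact p = 5.98e-10). Per kb of bait, *HBD*-3.5kb and the LCR had nearly the same number of leaving pairs, 48.5 (42.9 to 54.7) and 48.1 (45.0 to 51.4, adjusted exact p = 0.969). With outside ends at least 10 kb from the bait, they had 33.1 and 40.6 (adjusted exact p = 0.0186).

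Outside the locus, the *HBB* bait had 39 ends, *HBD*-3.5kb 83, the LCR 445 and *HBG* 0. The LCR thus had 50.6% of its leaving pairs there (47.3 to 53.9%), *HBB* 36.1% (27.7 to 45.5%) and *HBD*-3.5kb 31.1% (25.8 to 36.9%). The gene span of the olfactory receptor *OR51B5*, beyond HS5, held 14 of the 39 *HBB* ends (35.9%), 46 of the 83 *HBD*-3.5kb ends (55.4%) and 210 of the 445 LCR ends (47.2%). The span of *OR52A5*, beyond 3'HS1, held 7 (17.9%), 4 (4.82%) and 17 (3.82%). Any olfactory receptor gene span held 59.0%, 63.9% and 60.0%, and any protein-coding gene span held 79.5%, 78.3% and 74.4%. The spans of long *HBE1* and *HBG2* transcripts, which run past HS5, held more ends than *OR51B5*, 19, 53 and 268. The share of the flanking sequence that these spans cover was not computed. These genes were found after the ends were mapped, and their spans overlap. Measured from the edge of the locus, the median distance beyond HS5 was 26.3 kb for *HBB*, 31.8 kb for *HBD*-3.5kb and 34.5 kb for the LCR. That edge is also the edge of the LCR bait and lies farther from the other baits, so bait position still enters. Beyond 3'HS1 it was 73.6, 80.1 and 72.9 kb. No *HBB* end lay over 1 Mb from its bait, whereas 2 *HBD*-3.5kb ends and 8 LCR ends did.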

How the data were processed

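The authors aligned reads to hg19, kept those with 1 location and, per the labels, used Bowtie2 2.2.8 and Picard in the submitters' processing. They merged 3 replicates and kept pairs with a BF score of at least 20. The deposited table gives positions of both ends and this score. It gives no read count. The restriction enzyme is not given in the sources used here. Starts were read as 1-based, since 157 of 2921 ends then began and 91 closed with GATC, against at most 12 and 18 when shifted by up to 4 bases.

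Bait edges and HS centres were read from the study's drawing as distances from GENCODE release 44 start sites. An end belonged to the region holding its midpoint. Fisher's exact test, two-sided, was used for shares of leaving pairs, and p-values were adjusted by Benjamini-Hochberg over 36 tests (Python 3.11.15, numpy 2.4.6, scipy 1.17.1, pandas 2.3.3), tested on simulated lists. Named places are the baits, sites, globin genes and, per bait, the 3 most used ends and outside bins. Inner bins and olfactory receptor genes were added after values were seen. The members and lists were chosen with earlier results of these data known. The single-replicate samples and the WT list, beyond its size, were not analysed here. Sequences of ends ranked below the first are not reported here. Alternatives are in the closing section.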

Additional observations from a re-analysis of the deposited data

How the results depend on the processing

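Of 448 values recomputed under alternative settings, for 38 results, 390 did not turn in direction or cross the threshold or, for counts of calls, stayed within 1.5 times the reported count. Differences below are the first bait minus the second, in percentage points for shares. Those of leaving pairs per kb are in pairs per kb, or in pairs with no division by bait length. The LCR share of *HBB* against *HBG* lay between -68.5 without the most used ends and -22.1 over all pairs of the bait, against -65.8 as reported. The setting without pairs in 2 lists says nothing of it, since it removes most pairs between baits.

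For *HBD*-3.5kb against the LCR, the share leaving the bait turned from -46.0 to 16.9 with ends at least 1 kb apart and to 5.62 over pairs of 1-kb bins. The difference in leaving pairs per kb, 0.458 as reported, became -4.77 with baits widened by 0.5 kb, -3.46 without the most used end, -6.12 without pairs in 2 lists, -7.51 with outside ends at least 10 kb from the bait, and -613 with no division by bait length. The share towards the LCR side was -17.9 within 15 kb and 22.0 with no limit, both called. The share at the highest score was 2.22 with ends at least 1 kb apart and no longer called. The share between 3'HS1 and *HBB* turned to -1.81 over all pairs, where it was called, and to -1.69 at the highest score, where it was not. That of *HBBP1* and *BGLT3*, called over all pairs at -4.11, turned to 0.605 over bins and 0.436 without pairs in 2 lists.

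For *HBB* against *HBG*, the share towards the LCR side was 60.0 over bins (adjusted exact p = 0.161), 7.16 with widened baits, -23.8 within 30 kb and -16.8 with no limit. The share at the highest score was -14.5 over bins, no longer called, and 4.88 with a score of at least 100. The share at least 10 kb apart was -27.0 without pairs in 2 lists, which leaves *HBG* with 4 pairs, and -9.26 at 5 kb, with neither called. The share at least 20 kb apart became 41.96 at 40 kb. The HS5 share turned to 0.632 over all pairs and 2.60 at the highest score, and the *HBD*-3.5kb share to -4.02 over bins. The number of target intervals called, 4 as reported, was 1 over bins, 2 without pairs in 2 lists, 3 at the highest score, and 5 over all pairs or pairs of any list. For *HBD*-3.5kb against the LCR, the 7 called became 5 over bins, at the highest score and without pairs in 2 lists. The causes were not tested.

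No paired analysis was possible because the replicate numbers of the labels belong to samples that had been merged into the 1 list used. With 38 leaving pairs in the *HBG* list, a count of 0 allows a share of up to 7.89% by the floor of 3 pairs and 9.18% by the Wilson interval.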
